A study of Homo sapiens with 12 samples.

Results

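The H/ACA and Cajal body small RNAs described here are the genes whose symbol starts with SNORA or SCARNA. They comprised 77 of the 18417 genes with a named row on the array, 61 SNORA and 16 SCARNA genes. A row is a probe set for 1 transcript, it counted only where its annotation held 1 gene symbol, and the brightest row over all 12 arrays stood for a symbol with several. Another 28 rows that name such an RNA together with another gene were not used.

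RNA from human leukaemia cells was measured on Affymetrix arrays in 4 groups of 3 arrays. KS is K562, an established chronic myeloid leukaemia line that is sensitive to adriamycin (doxorubicin, an anthracycline). KA is its adriamycin-resistant subline K562/ADR, which was kept in medium with 50 nM adriamycin, so the subline and its drug exposure cannot be told apart. KS and KA were each measured untreated and after 5 nM decitabine for 72 hours. Decitabine is a deoxycytidine analogue that traps DNA methyltransferases on DNA, and the study asked how it acts on resistance that rests on the efflux pump P-glycoprotein. What the untreated cells received, whether adriamycin was present during treatment, and whether replicates were separate cultures are not given in the sources used here. If replicates came from one culture, the p-values reflect technical spread alone.

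H/ACA RNAs fold into hairpins that pair with a target RNA and direct the conversion of chosen uridines to pseudouridine. Each is bound by DKC1, the pseudouridine synthase, and by NOP10, NHP2 and GAR1. Most SNORA members act in the nucleolus on ribosomal RNA. SCARNA members lie in Cajal bodies and act on the small nuclear RNAs of the spliceosome, and some of them carry C/D boxes, which direct methylation, instead of or beside H/ACA boxes. Nearly all are cut out of introns of longer host transcripts, and many host genes code for ribosomal proteins or other parts of the translation machinery. A probe inside an intron reads both the trimmed RNA and any unspliced host RNA, and the arrays cannot tell these apart.

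In the RefSeq gene table for GRCh38.p14, 12 members lie inside 10 ribosomal protein genes, 7 lie inside SNHG genes (long noncoding hosts of small RNAs), and 58 lie inside other genes. Start sites of ribosomal protein genes are known for a run of pyrimidines, so the 40 bases around the start are shown for containing genes of members that the results turn on. RefSeq bases of the coding strand, which reads like the RNA, are given, 20 before and 20 after the annotated start. The first CTTT is in capitals where there was one.
RPSA, chr3:39406700-39406739, plus strand, with SNORA6 and SNORA62: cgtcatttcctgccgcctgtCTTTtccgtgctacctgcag
RPL21, chr13:27251538-27251577, plus strand, with SNORA27: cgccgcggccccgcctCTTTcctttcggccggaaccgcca
RPL27A, chr11:8682772-8682811, plus strand, with SNORA3A and SNORA3B: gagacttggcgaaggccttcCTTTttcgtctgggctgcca
RPS12, chr6:132814549-132814588, plus strand, with SNORA33: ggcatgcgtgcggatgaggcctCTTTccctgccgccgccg
RPLP2, chr11:809947-809986, plus strand, with SNORA52: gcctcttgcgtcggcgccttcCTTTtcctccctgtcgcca
NCL, chr2:231464465-231464504, minus strand, with SNORA75: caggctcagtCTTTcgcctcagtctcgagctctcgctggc
EIF4A1, chr17:7572805-7572844, plus strand, with SNORA67: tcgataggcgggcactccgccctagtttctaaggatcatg
ATG16L1, chr2:233251653-233251692, plus strand, with SCARNA5 and SCARNA6: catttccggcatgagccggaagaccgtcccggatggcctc
CTTT was searched on the coding strand from 10 bases before to 20 bases after the start. It occurred in 7 of the 7 ribosomal protein genes with a sequence in the table, in 2 of 6 SNHG genes, in 7 of 42 other containing genes, and in 12.1% of 27305 genes. A match describes these letters only.

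Values are log2 intensities as deposited, and pairs of replicate arrays correlated at 0.983 to 0.995 over the 77 members. ABCB1, the P-glycoprotein gene and a check of the labels, was 7.83 higher on the log2 scale in untreated KA than in untreated KS. Over 7 measured erythroid markers, the mean of an array lay between 9.31 and 9.54, and 4 of the 7 were higher in untreated KA than in untreated KS and 4 higher with decitabine in KS. Array means lay between 3.82 and 4.47 for 5 lymphoid, 7.85 and 8.15 for 5 epithelial and 3.70 and 4.06 for 5 fibroblast markers, and 1, 2 and 1 of them were higher in untreated KA. The part of these markers in the results was not tested. The third untreated KS array was examined apart from its replicates. Of 39 members called with decitabine in KS when that array was left out, it lay on the treated side of its group in 31, a median 31.5% of the way to the treated mean, against 29.9% over 5775 such genes. Genes called without an array tend to place that array toward the other group, and the same shares were not computed for other arrays. These values therefore do not show that the third array was unlike its replicates. The main counts are also given without this array.

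Member levels ran from a mean of 2.26 for SNORA70F to 11.15 for SNORA3A. Each array has a lower quartile of its values, and 3.39 was the highest of these. A mean at or under 3.39 was taken as not above background, and this held for SCARNA14, SNORA19, SNORA36C, SNORA69 and SNORA70F. The other 72 members lay above it. Between probes of different genes these levels have no common scale. SNORA70, SNORA71, SNORA14, SNORA5, SNORA2, SNORA38, SNORA15 and SCARNA9 each have closely related or near-identical copies whose probes can read one another, so values of single copies are uncertain. SNORA10 and SNORA15 each had several rows with the same or nearly the same values.

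Without decitabine, KA gave lower values than KS for many H/ACA RNAs. Of the 77 members, 27 were lower and 6 were higher in KA at an adjusted p under 0.05 (limma over all genes, Benjamini-Hochberg). Over all genes 14.1% were lower and 11.6% higher (25.7% in all). The median member change was -0.24 on the log2 scale, beside 0.02 over all genes and -0.20 over 115 C/D box (SNORD) genes, of which 34 were lower and 2 higher (33 and 1 without the third untreated KS array). The 3 arrays of one line lay wholly above or below those of the other for 41 members, against 38.4% of all genes. Without the third untreated KS array, 32 members were lower and 6 higher. The shift differed by level. Of 23 members with a mean of at least 7 on the log2 scale, 7 were lower and 4 higher (median 0.06). Of 54 dimmer members 20 were lower and 2 higher (median -0.31). Among the 72 members with a mean above background (defined above), 24 were lower and 6 higher. The part of level in these counts was not tested.

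SNORA75, which lies inside the gene of the nucleolar protein nucleolin (NCL), had log2 intensities of 7.98, 7.86 and 7.58 in untreated KS and 5.90, 6.00 and 5.99 in untreated KA. All KS arrays lay far above all KA arrays, and the KA arrays were tightly grouped. The difference was -1.84 ± 0.18 (SE, limma adjusted p = 8.69e-06), 3.58-fold lower in KA. NCL itself differed by -0.16 ± 0.10 and was not called.

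The pair inside RPSA, which codes for a protein of the small ribosomal subunit, was lower in KA. SNORA62 had 7.24, 7.32 and 7.38 in KS and 5.72, 5.30 and 5.84 in KA, a change of -1.69 ± 0.16 (limma adjusted p = 6.5e-06). SNORA6 had 6.99, 6.91 and 6.95 in KS and 5.74, 5.92 and 5.93 in KA, a change of -1.09 ± 0.09 (limma adjusted p = 9.7e-07). For both RNAs the lines were separated by more than the whole spread of either group.

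SNORA27 lies inside RPL21, a gene for a large subunit protein. Its values were 5.92, 5.98 and 6.17 in KS and 4.51, 4.43 and 4.70 in KA, with the KA arrays all lower, and it had the smallest adjusted p of the members in this comparison (-1.48 ± 0.09, limma adjusted p = 1.26e-07). SNORA67, inside the translation initiation factor gene EIF4A1, had 9.33, 9.29 and 8.91 in KS and 7.47, 7.91 and 7.54 in KA (-1.54 ± 0.26, limma adjusted p = 0.000665). The lowest KS array of SNORA67 still lay above every KA array. SNORA13, inside the noncoding gene EPB41L4A-AS1, had 5.86, 5.94 and 5.65 in KS and 4.56, 4.64 and 4.68 in KA (-1.19 ± 0.11, limma adjusted p = 4.16e-06), again without overlap.

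Of the 12 members inside ribosomal protein genes, 9 were lower in KA, 2 were higher and SNORA65 was not called. Their median change was -0.77. The 58 members inside genes other than ribosomal protein and SNHG genes had a median of -0.23 with 16 lower and 3 higher. Those inside SNHG genes, 7 members, had a median of 0.13 with 2 lower and 1 higher, the same counts as without the third untreated KS array. Of all genes, 14.1% were lower and 11.6% higher. Without the third untreated KS array the counts were again 9 lower and 2 higher in ribosomal protein genes, and 21 lower and 3 higher in the other genes. The 2 that were higher, SNORA3A and SNORA52, lie inside RPL27A and RPLP2. SNORA52 had 7.05, 7.01 and 7.21 in KS and 7.73, 7.79 and 7.68 in KA, all KA arrays being higher (0.64 ± 0.08, limma adjusted p = 8.66e-05). SNORA69, inside RPL39, changed by -1.15 ± 0.23 (limma adjusted p = 0.00195), a lower bound in size because its KA mean did not exceed background.

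RPL27A holds 2 members that went opposite ways. SNORA3A, the brightest member, had 10.81, 10.96 and 10.998 in KS and 11.10, 11.17 and 11.22 in KA (0.24 ± 0.08, limma adjusted p = 0.0394). SNORA3B had 7.59, 7.81 and 7.39 in KS and 6.27, 6.81 and 6.77 in KA (-0.98 ± 0.14, limma adjusted p = 0.000216). Every KA array was above every KS array for SNORA3A and below for SNORA3B, which share a containing gene. The call of SNORA3A lay near the threshold, and whether probes of these like-named RNAs read one another was not tested. SNORA3A and the SNORA29 and SNORA20 pair below were picked as examples of a shared containing gene after their values were seen.

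Among the 16 SCARNA members, 2 were higher (12.5%, near the 11.6% of all genes) and 4 lower (beside 14.1% of all genes) in untreated KA, with the same counts when the third untreated KS array was left out. SCARNA17, the longest member at 421 nt and located inside SNHG22, had 5.62, 5.68 and 6.11 in KS and 6.78, 6.78 and 6.82 in KA. The KA arrays were nearly equal and all above KS, and the difference was 0.99 ± 0.11 (limma adjusted p = 1.49e-05). SCARNA22, inside the histone methyltransferase gene NSD2, was higher by 0.53 ± 0.11 (limma adjusted p = 0.00302). NSD2 itself was higher by 0.48 ± 0.07. SCARNA5 (-0.57 ± 0.11), SCARNA7 (-0.37 ± 0.09) and SCARNA16 (-0.34 ± 0.08) were lower in every alternative tried, whereas the call of SCARNA1 (-0.34) was lost in 6 of 14 alternatives, with an adjusted p up to 0.115 without the first untreated KA array.

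**Figure D1:**
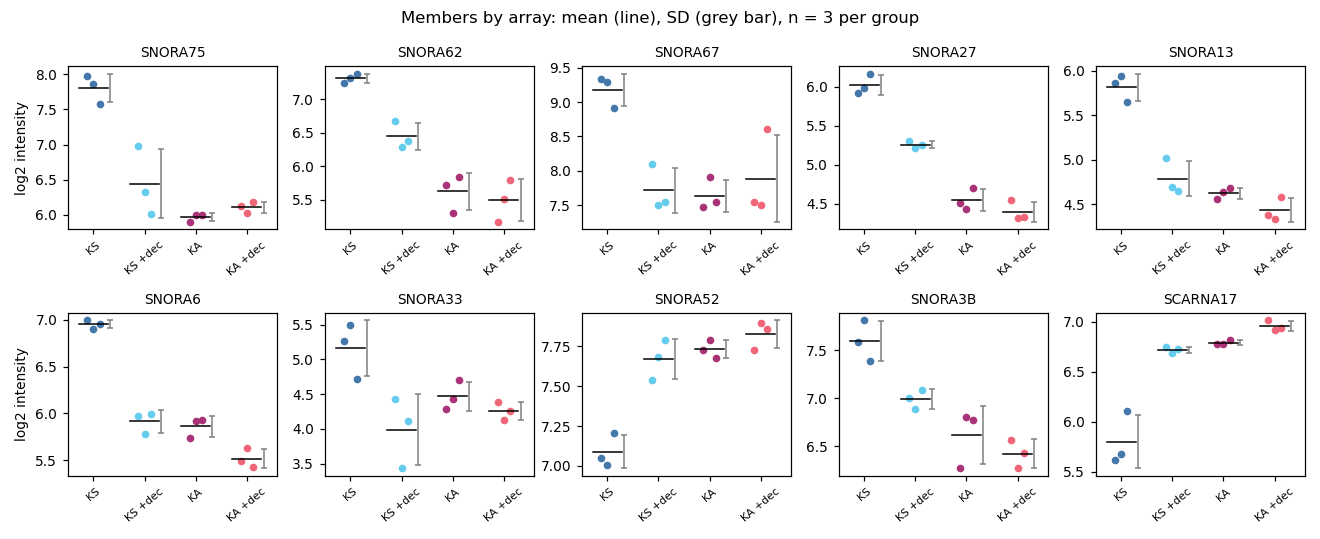
Log2 intensity (vertical axis) of 10 members on each array in KS and KA without and with decitabine (+dec). Points are the 3 arrays of a group, lines the mean and grey bars the SD, and the vertical axis differs between panels. SNORA75, SNORA62, SNORA27, SNORA13 and SNORA6 were highest on all 3 untreated KS arrays, while SNORA52 and SCARNA17 were lowest there.

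In KS, decitabine moved members in both directions. Of the 77, 20 rose and 18 fell, with a median of -0.01 for members and for all genes, of which 14.6% rose and 15.7% fell (30.3% in all). The treated and untreated arrays did not overlap for 44 members, against 40% of all genes. By kind of RNA, 12 of 61 SNORA members rose and 18 fell (median -0.13), whereas 8 of 16 SCARNA members rose and none fell (median 0.39). This contrast between the kinds is a count and was not itself tested. Without the third untreated KS array, 11 SNORA members rose and 21 fell, and 7 SCARNA members rose and none fell. Without the third treated KS array, 12 members in all rose.

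SCARNA17 had 6.75, 6.69 and 6.73 in treated KS beside the untreated 5.62, 5.68 and 6.11 (0.92 ± 0.11, limma adjusted p = 3.59e-05). All treated arrays were higher than all untreated ones and lay just below the untreated KA arrays. Its other row, which was not used in the counts, ran from 4.30 to 4.82 in untreated KS and from 5.32 to 5.59 in treated KS, without overlap.

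SCARNA7, inside the nuclear import gene KPNA4, had 7.25, 7.33 and 7.35 in untreated and 8.11, 7.88 and 8.06 in treated KS (0.71 ± 0.09, limma adjusted p = 0.000105). KPNA4 changed by -0.05 ± 0.09 and was not called. SCARNA10, inside the condensin gene NCAPD2, had 6.74, 6.79 and 7.08 untreated and 7.66, 7.61 and 7.34 treated (0.67 ± 0.11, limma adjusted p = 0.000433). For both, each treated array was above each untreated one, and the third untreated array of SCARNA10 was the nearest to the treated ones.

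The 2 members inside ATG16L1, an autophagy gene, rose together. SCARNA6 had 5.80, 5.79 and 6.08 untreated and 6.76, 6.69 and 6.69 treated, with a clear gap between the groups (0.82 ± 0.11, limma adjusted p = 0.000122). SCARNA5 rose by 0.33 ± 0.11 (limma adjusted p = 0.0365), a call that was lost with median centring and with single arrays left out (adjusted p up to 0.137 without the second untreated KS array). ATG16L1 itself changed by -0.20 ± 0.11 and was not called. SCARNA9, inside the centrosomal gene CEP295, had 6.40, 6.95 and 7.07 untreated and 8.35, 7.38 and 7.97 treated, a wide spread without overlap (1.10 ± 0.26, limma adjusted p = 0.00638). CEP295 rose by 0.33 ± 0.08. SCARNA22 rose by 0.45 ± 0.11, and SCARNA23 by 0.65 with a call that was lost when single arrays were left out (adjusted p up to 0.15 without the third treated KS array).

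The SCARNA members that rose were mostly the long ones. Of the 8 SCARNA members of at least 200 nt, 6 rose (median 0.69), and of the 8 shorter ones 2 rose (median 0.11). Of all 67 members under 200 nt, 14 rose and 18 fell, beside 14.6% and 15.7% of all genes. Longer RNAs can hold more probe positions, and the part of length in these counts was not tested. Level moved with direction too: of 23 members with a mean of at least 7 on the log2 scale, 9 rose and 1 fell, and of 54 dimmer members 11 rose and 17 fell. Without the third untreated array, 6 of the 8 long and 1 of the 8 short SCARNA members rose, 9 brighter members rose and 2 fell, and 9 dimmer members rose and 19 fell.

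**Figure D2:**
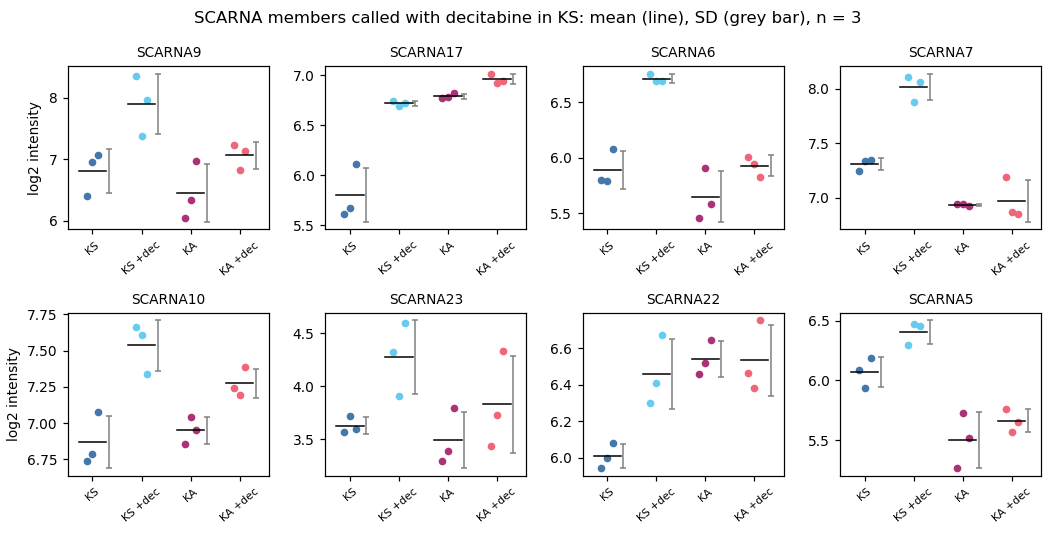
Log2 intensity (vertical axis) of the 8 SCARNA members called with decitabine in KS, on each array of untreated and treated (+dec) KS and KA. Points are the 3 arrays of a group, lines the mean and grey bars the SD, with a separate vertical axis in each panel. All 3 treated KS arrays lay above all 3 untreated KS arrays in each of the 8 panels.

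Of the 18 members that fell in KS, 15 were among the 27 that were lower in untreated KA, and of the other 12 of these 27, 3 rose in KS and 9 were not called. These comparisons share the untreated KS arrays, and the same overlap was not counted over all genes. SNORA75 had 6.98, 6.33 and 6.02 in treated KS beside 7.98, 7.86 and 7.58 untreated (-1.37 ± 0.18, limma adjusted p = 0.000112). SNORA67 had 8.10, 7.51 and 7.55 beside 9.33, 9.29 and 8.91 (-1.46 ± 0.26, limma adjusted p = 0.000848). In both the first treated array was the highest of its group and still lay below all untreated arrays. NCL, which contains SNORA75, fell by 0.70 ± 0.10.

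SNORA6 had 5.98, 5.78 and 6.00 in treated KS, more than the spread of either group below untreated KS (-1.03 ± 0.09, limma adjusted p = 7.17e-06). SNORA62, inside the same gene, had 6.68, 6.29 and 6.37 (-0.87 ± 0.16, limma adjusted p = 0.00124). SNORA13 had 5.02, 4.70 and 4.65 (-1.03 ± 0.11, limma adjusted p = 2.19e-05). SNORA33, inside the small subunit gene RPS12, had 5.27, 5.50 and 4.72 untreated and 4.43, 3.43 and 4.11 treated; both groups were widely spread and did not overlap (-1.17 ± 0.23, limma adjusted p = 0.00169). SNORA69 fell by 0.92 ± 0.23 to a mean that did not exceed background, so that size is a lower bound. Of the 12 members inside ribosomal protein genes, 6 fell and 2 rose, again SNORA3A and SNORA52, beside 15.7% and 14.6% of all genes. The counts were the same without the third untreated array.

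SNORA14A, inside the P450 reductase gene POR, had the largest called change of any member with decitabine in KS. It had 5.07, 5.14 and 5.74 in untreated and 6.35, 7.53 and 7.17 in treated KS, so the treated arrays were all higher but spread over more than 1 log2 unit (1.70 ± 0.32, limma adjusted p = 0.00124). POR changed by -0.13 ± 0.07 and was not called. The like-named SNORA14B rose by 0.52 ± 0.15 (limma adjusted p = 0.0208). TCP1, a chaperonin gene, contains SNORA20 and SNORA29, which went opposite ways. SNORA20 had 7.16, 7.12 and 6.92 untreated and 7.49, 7.47 and 7.50 treated (0.42 ± 0.11, limma adjusted p = 0.00951). SNORA29 had 5.67, 5.90 and 5.10 untreated and 4.73, 4.23 and 5.04 treated (-0.89 ± 0.22, limma adjusted p = 0.00669). SNORA20 was higher on every treated array and SNORA29 lower, and TCP1 fell by 0.35 ± 0.07.

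In KA, few members passed the test with decitabine. Of the 77, 2 rose and 2 fell, against 9.66% and 4.96% of all genes (14.6% in all), and the median change was 0.08 beside -0.02 over all genes. Groups did not overlap for 17 members, against 35.9% of all genes. SNORA21, inside the large subunit gene RPL23, had 8.45, 8.47 and 8.39 untreated and 8.08, 8.02 and 8.0 treated. All treated arrays were lower, the change was -0.40 ± 0.08 (limma adjusted p = 0.00578), and the call was kept in all 13 alternatives. SNORA6 had 5.74, 5.92 and 5.93 untreated and 5.50, 5.63 and 5.43 treated (-0.34 ± 0.09, limma adjusted p = 0.0176). SNORA20 changed by 0.39 ± 0.11 (limma adjusted p = 0.0277) and SNORA7B, inside the pseudogene RPL32P3, by 0.29 ± 0.08 (limma adjusted p = 0.0285). The calls of SNORA6, SNORA20 and SNORA7B were lost when single arrays were left out, with adjusted p up to 0.076 and 0.117 for SNORA6 and SNORA20 without the third treated array and 0.112 for SNORA7B without the same array. None of the 16 SCARNA members was called (their median was 0.16). This rests on the brightest rows. The unused row of SCARNA9 had 4.54, 5.22 and 5.49 in untreated and 6.10, 5.88 and 5.70 in treated KA. That of SCARNA17 was also higher on every treated KA array, and that of SCARNA9L overlapped. With row means, 5 members in all were called in KA.

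**Figure D3:**
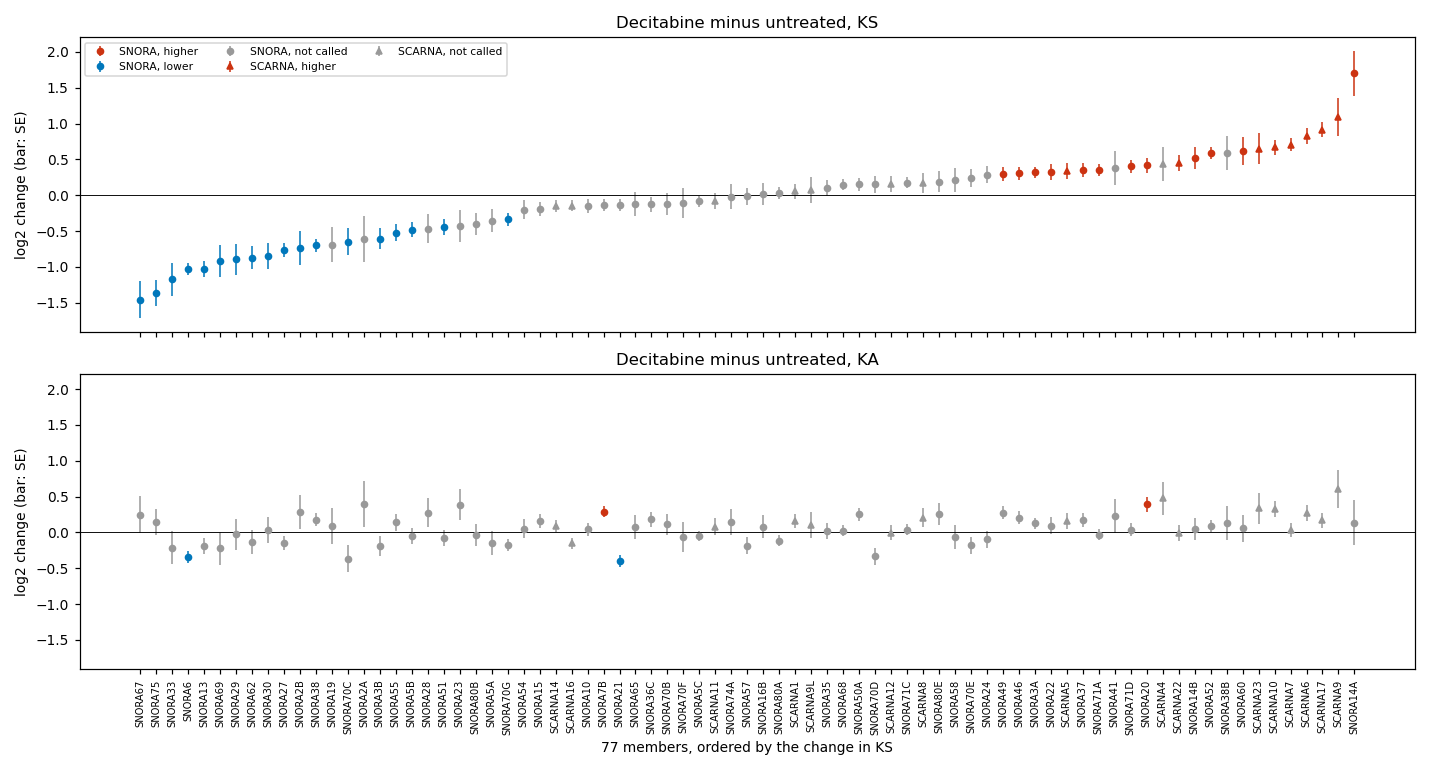
Log2 change with decitabine (vertical axis, bars are the SE) of the 77 members in KS (top) and KA (bottom), both ordered by the change in KS. Circles are SNORA and triangles SCARNA members; red marks a called rise, blue a called fall and grey no call. In KS 20 members rose and 18 fell, and in KA 2 rose and 2 fell.

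The decitabine comparisons in KS and KA share no arrays. Across the 77 members their changes correlated at Pearson r = 0.36 and Spearman rho = 0.35 and had the same sign for 49 members (63.6%). Over all genes r was 0.62, rho was 0.48 and 64.8% had the same sign. Members share arrays and some share probes or a containing gene, so these values describe and have no p.

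The response to decitabine itself differed between the lines for 11 members, by the interaction term of the fit. For 8 the change was higher in KA than in KS, and for 3 it was lower, against 4.6% and 2.14% of all genes (6.74% in all). SNORA75 had 6.12, 6.03 and 6.18 in treated KA beside 5.90, 6.00 and 5.99 untreated, a change of 0.14 ± 0.18 against -1.37 in KS. The difference of responses was 1.51 ± 0.26 (limma adjusted p = 0.00776). SNORA38, inside PRRC2A, had 7.29, 7.21 and 7.20 in untreated KS and 6.70, 6.51 and 6.40 in treated KS, whereas KA had 6.34, 6.60 and 6.62 and then 6.73, 6.69 and 6.67. It fell in KS by 0.70, in KA its change of 0.18 was not called, and the difference was 0.88 ± 0.13 (limma adjusted p = 0.00309).

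SCARNA17 and SCARNA7 responded more in KS. SCARNA17 had 7.02, 6.92 and 6.94 in treated KA, 0.17 ± 0.11 above untreated KA and not called. Its difference of responses was -0.75 ± 0.15 (limma adjusted p = 0.0131). The other SCARNA17 row, not used in the counts, did rise in KA without overlap. It ran from 5.42 to 5.59 in untreated and from 5.70 to 6.01 in treated KA. The SCARNA17 response call was kept in all 19 alternatives, row means among them, with differences from -0.90 to -0.61. SCARNA7 had 6.95, 6.94 and 6.93 in untreated KA and 7.20, 6.87 and 6.85 in treated KA, which overlap, and its difference was -0.67 ± 0.13 (limma adjusted p = 0.0131). Every array of the other groups lay below the untreated KS arrays for SNORA75 and above them for SCARNA17. Without the third untreated KS array, 14 members had a higher and 5 a lower response in KA. Without the first untreated KS array these counts were 5 and 2, and without the second untreated KA array 5 had a higher response.

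With decitabine in both lines, 18 members were lower in KA than in KS and 3 were higher, against 11.9% and 15.1% of all genes (27% in all). The median was -0.12 beside 0.00 over all genes, and groups did not overlap for 27 members, against 41.5% of all genes. Without the third treated KA array 1 member was higher. SNORA21 had 9.09, 9.03 and 9.31 in treated KS and 8.08, 8.02 and 8.0 in treated KA, a gap far wider than either group (-1.11 ± 0.08, limma adjusted p = 4.21e-07).

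SCARNA7 had 8.11, 7.88 and 8.06 in treated KS and 7.20, 6.87 and 6.85 in treated KA (-1.04 ± 0.09, limma adjusted p = 3.05e-06). SCARNA6 differed by -0.79 ± 0.11, SCARNA5 by -0.74 ± 0.11 and SCARNA16 by -0.35 ± 0.08. The call of SCARNA9 (-0.84 ± 0.26, limma adjusted p = 0.0312) was lost in 5 of 14 alternatives (adjusted p up to 0.131 without the first treated KS array). SNORA14A (-1.61 ± 0.32) and SNORA14B (-1.14 ± 0.15) were lower in treated KA too. Of the 27 members lower in KA among the untreated lines, 13 were lower among the treated lines as well, and 14 were not called. The 13 include SNORA62 (-0.95 ± 0.16) and SNORA27 (-0.86 ± 0.09). The same overlap was not counted over all genes. The 2 line comparisons share no arrays. Across the 77 members their changes correlated at Pearson r = 0.41 and Spearman rho = 0.43, beside r = 0.76 and rho = 0.48 over all genes. By rank the members were thus close to all genes. The sign was the same for 64.9% of members and 62.2% of all genes.

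Call patterns across the untreated lines, decitabine in KS and the treated lines fell into a few kinds. The first 2 of these comparisons share the untreated KS arrays, so their calls are not independent. Of the members, 15 were lower in untreated KA and fell with decitabine in KS, and 5 of these 15 were still lower in treated KA. Another 5 were higher in untreated KA and rose in KS (SCARNA17, SCARNA22, SNORA3A, SNORA22 and SNORA52). In 3, SCARNA5, SCARNA7 and SNORA14B, KA was lower before treatment, KS rose, and KA was lower after it. In 26 none of these comparisons was called. The same patterns were not counted over all genes, so they are not shown to be particular to these RNAs.

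Members followed their containing genes in part. Over 56 pairs of a member and a containing gene with its own row (47 genes), the correlation of their changes across genes was Pearson r = 0.25 between untreated lines, 0.32 with decitabine in KA, 0.19 with decitabine in KS and 0.39 between treated lines. Spearman rho was 0.30, 0.37, 0.15 and 0.52 in the same order. The signs agreed for 39, 30, 29 and 35 of the 56 pairs. The pairs include SCARNA14, SNORA19, SNORA36C and SNORA70F, which were not above background, and the containing gene HTR2C, which was not either. Genes are not independent replicates, and several pairs share a containing gene. The difference between untreated lines was -0.42 ± 0.08 for RPL23, beside -0.84 ± 0.08 for SNORA21.

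Transcripts of most protein partners of these RNAs fell in KS with decitabine. Over all genes 15.7% fell and 14.6% rose in KS, and 4.96% fell and 9.66% rose in KA. The genes of all 4 core proteins of the H/ACA particle were lower, with changes of -0.50 ± 0.08 for DKC1, -0.67 ± 0.08 for NOP10, -0.55 ± 0.08 for NHP2 and -0.64 ± 0.11 for GAR1. DKC1 had 9.17, 9.23 and 8.95 untreated and 8.66, 8.57 and 8.62 treated. NOP10 had 9.67, 9.64 and 9.64 untreated and 9.07, 8.91 and 8.95 treated. Both were lower on every treated array. The median of the 4 was -0.60 beside -0.01 over all genes, and the 4 calls were also made without the third untreated KS array. In KA 1 of the 4, NHP2, was called (-0.41 ± 0.08, limma adjusted p = 0.00482), and the other changes were -0.24 for DKC1, -0.17 for NOP10 and -0.33 for GAR1. DKC1 and GAR1 each passed in KA in 3 of 13 alternatives, with adjusted p of 0.0441 and 0.0189 when only the compared groups were fitted. NOP10 was the one core gene that passed the test of the difference of responses (0.50 ± 0.11, limma adjusted p = 0.0194), and it did not pass without the first untreated KS array (adjusted p = 0.0514) or the second untreated KA array (adjusted p = 0.0548). Of the 4, 2 passed without the third untreated KS array, DKC1 among them (0.34, adjusted p = 0.0395).

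Of 10 factors that assemble the H/ACA particle, 9 fell in KS (median -0.54) and 3 in KA, beside 15.7% and 4.96% of all genes. NOLC1, a nucleolar and Cajal body chaperone of small RNA particles, fell in KS by 0.70 ± 0.10 and in KA by 0.49 ± 0.10. SHQ1, which holds DKC1 before assembly, fell in KS by 0.67 ± 0.12 and differed by -0.63 ± 0.12 between untreated KA and KS. Between untreated lines 2 of the 10 were lower and 1 higher in KA, beside 14.1% and 11.6% of all genes. These counts were the same without the third untreated KS array. Between treated lines 6 were higher and 1 lower in KA, beside 15.1% and 11.9%. Of the 4 core genes 3 were higher there. The calls of DKC1, NOP10, NOLC1 and TCOF1 between treated lines were each lost in some alternatives. Of 21 measured Cajal body genes, 13 fell (61.9%) and 1 rose (4.8%) in KS (median -0.47), beside 15.7% and 14.6% of all genes. In KA 2 fell (9.5%), beside 4.96% of all genes. Between untreated lines 8 of the 21 were already lower (38.1%) and 1 higher (4.8%) in KA, beside 14.1% and 11.6%. Between treated lines 1 was lower and 4 were higher in KA, beside 11.9% and 15.1%. The difference of responses was called for 5 (23.8%), all higher in KA, beside 4.6% of all genes. Each of these 5 calls was lost in 9 to 11 of 19 alternatives. The KS counts of the assembly and Cajal body lists were again 9, and 13 and 1, without the third untreated KS array. WRAP53, which binds the Cajal body signal of SCARNA members and brings them there, had 6.71, 6.58 and 6.59 untreated and 6.24, 6.10 and 5.82 treated in KS, lower on each treated array (-0.57 ± 0.09, limma adjusted p = 0.000425). COIL, the scaffold coilin, fell in KS by 0.29 ± 0.08 and in KA by 0.33 ± 0.08, calls that were lost with single arrays left out (adjusted p up to 0.0844 in KS without the third treated array and 0.0597 in KA without the second treated array). The one that rose was NPAT, a coactivator of histone genes (0.47 ± 0.07, limma adjusted p = 0.000362).

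Of 8 enzymes and cofactors of small RNA end trimming, 4 fell in KS with and without the third untreated array, beside 15.7% of all genes. Among them were the exosome subunit EXOSC3 (-0.66 ± 0.11) and the poly(A) polymerase TENT4B (-0.54 ± 0.10). None of the 8 was called in KA, where 4.96% of all genes fell. TERC, the telomerase RNA, is itself an H/ACA RNA with a Cajal body signal and is not a member by symbol. It had 8.04, 7.97 and 8.09 in untreated KS and 7.59, 7.62 and 7.24 in untreated KA. All KA arrays were lower (-0.55 ± 0.14, limma adjusted p = 0.0106), as they were with decitabine (-0.61 ± 0.14, limma adjusted p = 0.00543), and decitabine changed TERC by 0.26 in KS and 0.20 in KA, neither called.

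Of 13 measured rows whose symbol names a spliceosomal small nuclear RNA, 2 rose and 3 fell with decitabine in KS. That is 15.4% and 23.1% beside 14.6% and 15.7% of all genes, and the same counts were found without the third untreated KS array. Which of these RNAs are targets of SCARNA members was not examined. Those that fell were RNU11 (-0.91 ± 0.13), RNU12 (-0.43 ± 0.10) and RNU4ATAC (-0.49 ± 0.10), all of the minor spliceosome. RNU11 had 7.47, 7.02 and 7.28 untreated and 6.53, 6.37 and 6.13 treated, lower on every treated array, and it also fell in KA (-0.60 ± 0.13). RNU6ATAC, the remaining minor form measured, rose by 0.58 ± 0.09 and RNU2-1 of the major spliceosome by 0.31 ± 0.09. The call of RNU2-1 was lost in 3 of 14 alternatives, including those without the second untreated or the second treated KS array (adjusted p up to 0.0763). Small nuclear RNA genes have near-identical copies, so these values are uncertain. The 115 SNORD genes, guides of methylation, had 42 falls (36.5%) and 8 rises (7.0%) in KS (median -0.19). Without the third untreated array these were 43 and 6. In KA 12 fell (10.4%) and none rose. Over all genes 15.7% fell and 14.6% rose in KS, and 4.96% fell and 9.66% rose in KA. The measured C/D particle proteins FBL and NOP58 fell in KS by 0.47 ± 0.07 and 0.76 ± 0.11. In KA FBL fell too (-0.36, limma adjusted p = 0.00437), a call kept in all 13 alternatives, and NOP58 (-0.32) was not called.

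**Figure D4:**
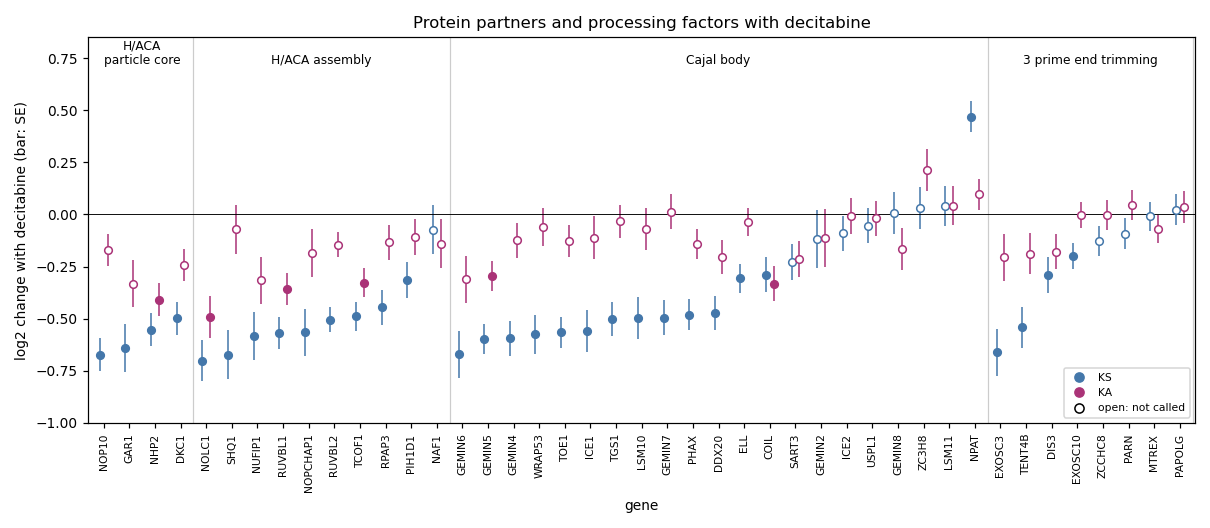
Log2 change with decitabine (vertical axis, bars are the SE) of 43 genes for the H/ACA particle core, its assembly, the Cajal body and 3 prime end trimming, in KS (blue) and KA (purple). Filled points passed the test and open points did not. All 4 core proteins and 9 of 10 assembly factors fell in KS, and 1 and 3 of them in KA. Over all genes 15.7% fell in KS and 4.96% in KA.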

How the data were processed

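The authors deposited log2 intensities of 33297 rows on 12 arrays. Background correction, summarization and normalization before deposit are not given in the sources used here, and no further scaling was applied. Of the rows, 19460 carry 1 gene symbol in the platform annotation, 1754 several and 12083 none, and 19429 matched RefSeq (GRCh38.p14) by Entrez identifier. In limma 3.58.1 under R 4.3.3, a model of the 4 group means gave 5 comparisons with Benjamini-Hochberg adjustment over 18417 genes, with 8 residual degrees of freedom, and the fit was tested on simulated data. The number of arrays limits the precision.

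Named members are the 10 largest called changes per comparison with groups that do not overlap (for the difference of responses, called only), called SCARNA members, called list genes, and H/ACA core proteins, COIL, WRAP53 and TERC in any case. Members and lists were chosen with earlier results of these data known. A containing gene is the shortest RefSeq gene that spans a member. Strand was not used, because the table lacks it, although the rule asked for the same strand. Alternatives were an intensity trend, quantile scaling, median centring, row means, a filter on low values, fewer groups, a replicate block and each array left out. Figures used matplotlib 3.10.9 in Python 3.11.15.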

Additional observations from a re-analysis of the deposited data

Results flagged for a closer look

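The change with decitabine differed between KA and KS, by the interaction term of the limma fit over all genes, for the following 11 members, given as the change in KA minus the change in KS on the log2 scale. It was higher in KA for SNORA67 (1.70), SNORA75 (1.51), SNORA38 (0.88), SNORA13 (0.83), SNORA6 (0.69), SNORA55 (0.66), SNORA27 (0.62) and SNORA7B (0.43). It was lower in KA for SCARNA17 (-0.75), SCARNA7 (-0.67) and SNORA52 (-0.49). The call of SNORA67 was lost without untreated KS replicate 1 (limma adjusted p = 0.0525) and that of SNORA27 without untreated KA replicate 2 (limma adjusted p = 0.0506). The calls of SNORA55 and SNORA52 were lost with several single arrays left out (limma adjusted p up to 0.0851 for SNORA55 without untreated KS replicate 1 and 0.0786 for SNORA52 without untreated KA replicate 2). SNORA7B lies outside the 10 largest and is named because all 11 are given. Its call was lost with quantile normalization, with the replicate block and with most single arrays left out.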

How the results depend on the processing

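No named change turned its call to the opposite direction in any alternative tried. With single arrays left out, members lower and higher in untreated KA numbered 22 to 32 and 5 to 6 (median -0.30 to -0.14), and in treated KA 15 to 22 and 1 to 4 (median -0.17 to -0.08). With decitabine in KS, 12 to 18 rose and 16 to 21 fell (median -0.06 to 0.05), and in KA 0 to 2 rose and 1 to 4 fell (median 0.02 to 0.10). The response was higher in KA for 5 to 14 and lower for 2 to 5 members (median -0.016 to 0.15). The count of rises in KA was 4 with an intensity trend and 1 with the replicate block. The count higher in treated KA was 5 with only the compared groups. The count with a lower response in KA was 7 with an intensity trend, 5 with quantile normalization, 6 with the filter on low values, and 6 without untreated KS replicate 3 and treated KS replicate 1, an alternative chosen after seeing the data. The cause of these moves was not tested. Replicate numbers are shared between groups, but the deviations of same-numbered arrays correlated at -0.26 to 0.19, so the numbers were not taken to pair the arrays, and the replicate block gave all other member counts within 1.5 times those reported. SCARNA5 with decitabine in KS (adjusted p = 0.0532), SNORA20 in KA (0.0504) and the response of SNORA55 (0.0727) were among the calls lost with the replicate block. Of named genes called in each comparison, those kept in every alternative were 28 of 34 between untreated lines, 7 of 12 with decitabine in KA, 47 of 54 in KS, 24 of 34 between treated lines and 6 of 18 for the difference of responses. Scaling moved the median of all genes by less than 0.1. Dim members limit what can be seen: 5 of 77 had means that did not exceed background.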
